A study of Rattus norvegicus with 12 samples.

Results

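Scin encodes adseverin (scinderin), a calcium-dependent protein of the gelsolin family that severs and caps actin filaments. It was chosen by its own readout, since its values in all 4 groups of these libraries, including vehicle-treated FGFR3/4KO RCS, were known when it was picked. Its levels and differences are therefore given as a description, with no test. It is 1 gene (ENSRNOG00000004498) of the 32754 listed in the deposited counts.

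Proteins of the gelsolin family loosen the cortical actin meshwork when calcium rises, and adseverin is best known from secretory cells, where this clears the way for exocytosis. In cartilage it is known from maturing chondrocytes, and in bone from osteoclasts. FGF18 is a ligand of FGFR3 and FGFR4 that acts on growth plate chondrocytes.

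The transcriptome was read by QuantSeq 3′ mRNA sequencing, which counts polyadenylated transcripts near their 3′ end, so that long transcripts give no more counts than short ones. RCS are chondrocytes of a rat chondrosarcoma kept as a cell line. WT RCS and 1 FGFR3/4KO clone, in which FGFR3 and FGFR4 had been disrupted by CRISPR/Cas9, were grown in DMEM with adult bovine serum, and were left without FGF18 (vehicle) or were given FGF18 overnight. The labels give its dose as 50 µg/ml and the methods give the same number in ng/ml. Each of the 4 groups had 3 biological replicates, and with 1 clone its particular features and the loss of the receptors cannot be told apart.

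The 12 libraries held 373964 to 1196647 reads on genes, FGFR3/4KO vehicle replicate 2 having the fewest. Reads set aside for low alignment quality made up 77 to 79.8% in WT RCS and 71.2 to 74.6% in FGFR3/4KO RCS, and the part of this difference in the results was not tested. The 2 targeted receptors and the chondrocyte markers Col2a1 and Acan were not analysed here by name. Of the chondrocyte markers that could be named, Sox9, the regulator of the chondrocyte lineage, lay between 1262 and 2055 CPM (counts scaled to a common library total, TMM-normalized) in all 12 libraries. Mia lay between 1373 and 2533 CPM and Col11a2 between 602 and 1042 CPM. Chad was low, between 1.1 and 19.7 CPM, and Epyc had 0 to 9 reads per library and did not pass the filter on low counts. Of the fibroblast markers, Col1a1 had 0 to 18 reads per library, while Col6a2 lay between 161 and 891 CPM and Col5a2 between 0.886 and 59.8 CPM.

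The 250 bases before the annotated start of Scin are shown because they are the stretch that precedes its transcript. The sequence is that of RefSeq for the build GRCr8, on the minus strand, at chr6:62915288-62915537, and the capitals mark an ATAAAA stretch.

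Scin: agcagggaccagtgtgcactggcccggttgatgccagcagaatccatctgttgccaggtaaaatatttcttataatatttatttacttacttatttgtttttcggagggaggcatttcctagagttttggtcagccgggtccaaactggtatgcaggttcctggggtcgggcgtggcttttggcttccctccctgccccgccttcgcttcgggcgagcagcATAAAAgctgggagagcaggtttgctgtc

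The ATAAAA stretch, a variant of the TATA box that was chosen after the sequence had been read, begins at position -29 relative to the start, and 18.6% of 33469 RefSeq promoters hold it on either strand in the same window. The TATA box itself (TATAAA, in 12.9% of promoters) had no match in the Scin window. Neither did TGANTCA for AP-1 (6.34%), CACGTG, the core of the CLEAR sites bound by TFEB and TFE3 (5.59%), CCGGAA for ETS factors (12.6%), AACAAT for SOX factors (10.3%), GGGCGG for the GC box (30.5%) or the CArG box of SRF (1.5%). Both strands were searched and none of these motifs overlap in this window. The window held 51.6% G and C, against a median of 51.2% over all promoters.

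Scin was at or near the limit of detection in vehicle-treated WT RCS and was present in the other groups. Vehicle-treated WT RCS gave 0, 2 and 3 Scin reads in replicates 1, 2 and 3, which equal 0, 2.72 and 2.998 CPM, with a mean of 1.91 ± 1.66 CPM (SD, n = 3). For the library without a Scin read, 3 reads would be 4.35 CPM, and the exact 95% Poisson interval of its count reached 5.35 CPM. WT RCS given FGF18 had 48, 37 and 11 reads, or 39.4, 35.4 and 13.6 CPM, with a mean of 29.4 ± 13.9 CPM (SD, n = 3). All 3 FGF18 libraries of WT RCS lay above all 3 vehicle libraries.

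FGFR3/4KO RCS held Scin without FGF18. With vehicle they gave 16, 8 and 12 reads, or 24.5, 22.7 and 13.2 CPM, with a mean of 20.1 ± 6.1 CPM (SD, n = 3). These values lay above those of vehicle-treated WT RCS without overlap, and within or just below the span of WT RCS given FGF18. FGFR3/4KO RCS given FGF18 had 15, 10 and 9 reads, or 19.8, 8.86 and 8.29 CPM, with a mean of 12.3 ± 6.47 CPM (SD, n = 3). One of these 3 libraries lay among the FGFR3/4KO vehicle libraries, and the others lay below them.

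**Figure D1:**
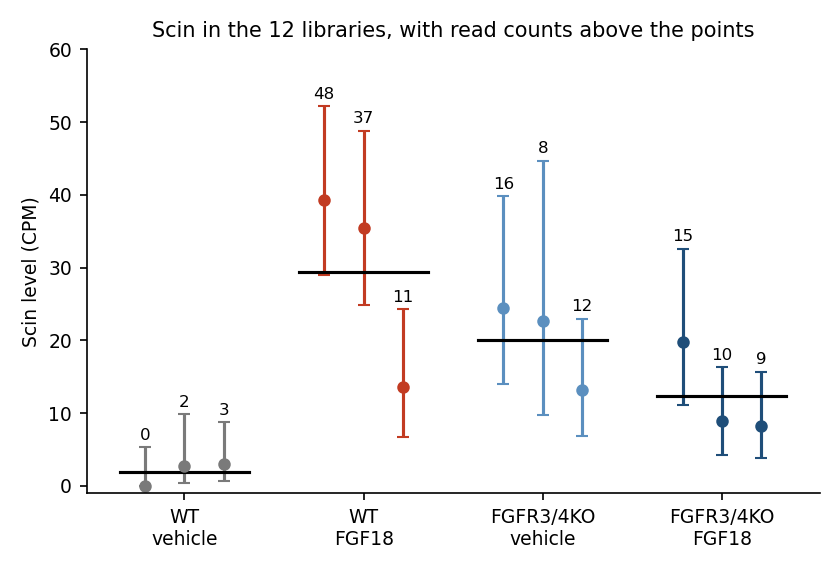
Scin level (CPM, vertical axis) in each library of the 4 groups on the horizontal axis. Points are libraries (replicates 1 to 3 from left to right), error bars are exact 95% Poisson intervals of the counts, numbers are reads and black lines are group means. WT vehicle libraries lie between 0 and 2.998 CPM, below all 9 others.

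In order of mean level the groups were WT with FGF18, FGFR3/4KO with vehicle, FGFR3/4KO with FGF18 and WT with vehicle. The ranges of neighbouring groups overlapped for WT with FGF18 and FGFR3/4KO with vehicle (13.6 to 39.4 and 13.2 to 24.5 CPM), and for FGFR3/4KO with vehicle and with FGF18 (13.2 to 24.5 and 8.29 to 19.8 CPM). WT with vehicle lay apart from the next group, with its highest library at 2.998 CPM and the lowest FGFR3/4KO FGF18 library at 8.29 CPM. Within the group of WT RCS given FGF18, replicate 3 lay below replicates 1 and 2, its exact 95% Poisson interval being 6.77 to 24.3 CPM against 29 to 52.2 and 24.9 to 48.8 CPM.

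As estimated from 3 libraries per group, which is imprecise, the spread between replicates was larger than counting error alone gives in both groups given FGF18. It was close to counting error with vehicle. In WT RCS given FGF18 the coefficient of variation between replicates was 47.2%, while counting error alone gave 17.9%. In FGFR3/4KO FGF18 libraries the same values were 52.6% and 30.2%, in FGFR3/4KO vehicle libraries 30.3% and 30.9%, and in WT vehicle libraries 86.9% and 78.4%. The methods name no molecular identifiers, so reads may be copies of a molecule, and these intervals and floors cover counting error only.

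With the reads of each group pooled, Scin was 15.1 times as high in WT RCS with FGF18 as with vehicle (95% counting interval 6.27 to 47.7, from 96 and 5 reads). Vehicle-treated FGFR3/4KO RCS were 9.11 times as high as vehicle-treated WT RCS (3.56 to 29.7, from 36 and 5 reads). In FGFR3/4KO RCS, the level with FGF18 was 0.609 of that with vehicle (0.37 to 1, from 34 and 36 reads). Under FGF18, WT RCS were 2.73 times as high as FGFR3/4KO RCS (1.83 to 4.16, from 96 and 34 reads). The ranges of these groups overlapped, with WT replicate 3 at 13.6 CPM and FGFR3/4KO replicate 1 at 19.8 CPM. WT RCS with FGF18 were 1.66 times as high as FGFR3/4KO RCS with vehicle (1.12 to 2.51). All of these intervals leave out the spread between replicates.

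From the edgeR fit of all 12 libraries, the log2 fold change of Scin with FGF18 was 3.79 (SE 0.59) in WT RCS and -0.71 (SE 0.47) in FGFR3/4KO RCS. The interaction, which is the effect of FGF18 in FGFR3/4KO RCS minus that in WT RCS, was -4.51 (SE 0.78) on the log2 scale. FGFR3/4KO against WT RCS gave a log2 difference of 3.14 (SE 0.67) with vehicle and -1.37 (SE 0.40) with FGF18. These comparisons share libraries, so that the low WT vehicle counts enter the first, the interaction and the vehicle comparison alike. With few reads in WT vehicle libraries, the fitted values depended on the prior count added to each library, and with a prior count of 2 the WT value became 2.91, the interaction -3.53 and the difference between genotypes with vehicle 2.31. Leaving out each library in turn kept the sign of all 5 differences.

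**Figure D2:**
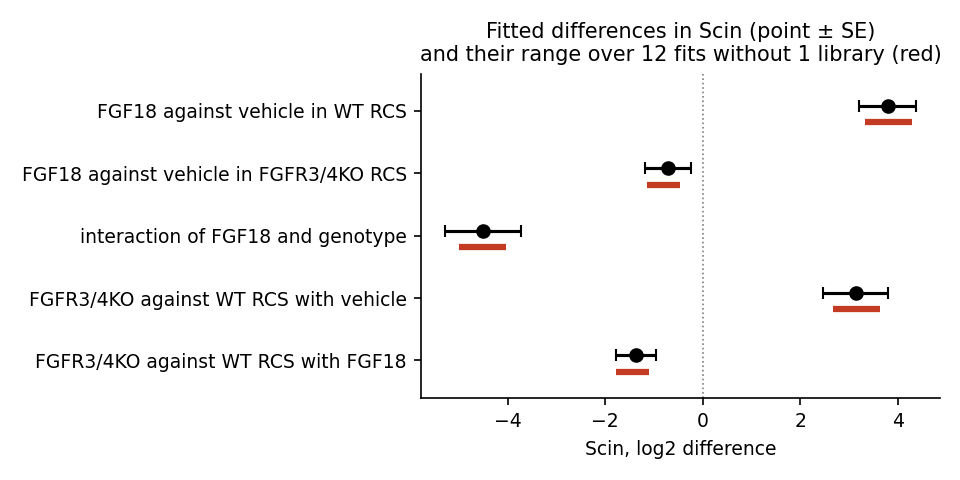
Fitted log2 differences in Scin (horizontal axis) for the 5 comparisons on the vertical axis. Black points and bars are the value ± SE from all 12 libraries, and red bars span the values from 12 fits that each left out 1 library, from 3.33 to 4.30 in WT RCS and from -1.13 to -0.47 in FGFR3/4KO RCS.

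Scin passed the filter on low counts among 7378 genes tested, and its level was over the cutoff of 11.3 CPM in 7 libraries. These were the 3 WT FGF18, the 3 FGFR3/4KO vehicle and 1 FGFR3/4KO FGF18 libraries, so that it was tested only through the groups in which it is high. Among the tested genes, the group mean of Scin in CPM, not scaled by length, stood at percentile 0.339 in WT RCS with vehicle and 38.3 with FGF18, and at 28.6 and 14.6 in FGFR3/4KO RCS. Even where it was highest, Scin was thus below the median gene tested.

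Of the 7 other members of the gelsolin family on the list, only Flii, which encodes the actin-binding protein flightless-1, could be named. Flii was at 27.5, 27.2 and 36 CPM in WT RCS with vehicle and at 60.7, 45.9 and 32 CPM with FGF18, so that the ranges overlapped. In FGFR3/4KO RCS it was at 27.6, 42.5 and 34 CPM with vehicle and at 13.2, 24.8 and 29.5 CPM with FGF18. Under FGF18, FGFR3/4KO RCS had less Flii than WT RCS (log2 fold change -1.02, SE 0.28, FDR = 0.00564 by the quasi-likelihood test of edgeR, adjusted after Benjamini-Hochberg), a call that was lost without WT FGF18 replicate 1 (FDR = 0.0617). For FGF18 against vehicle, Flii changed by 0.62 in WT RCS (FDR = 0.104, edgeR) and by -0.53 in FGFR3/4KO RCS (FDR = 0.796, edgeR) on the log2 scale, and neither passed.

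The other genes were read from lists of cytoskeleton regulators (actin filament regulators and others), FGF and ERK response genes, cartilage matrix and chondrocyte identity genes, and hypertrophy and mineralization genes. With Flii, 53 listed genes were tested. FGF18 changed 22 of them in WT RCS, 11 upward and 11 downward (FDR under 0.05, edgeR), where 12.9% of all genes tested rose and 12.8% fell. Of the 22 calls, 9 held in each of the 12 fits that left out 1 library. In FGFR3/4KO RCS, 0 of the 53 passed, as did 0% of all genes tested by edgeR, with 478 genes at an unadjusted p under 0.05 and 0 called by DESeq2. The interaction passed for 4 listed genes upward and 6 downward, against 5.91% and 4.96% of all genes.

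Among 15 actin filament regulators tested of 66 listed, 4 rose and 4 fell in WT RCS given FGF18, against 12.9% and 12.8% of all genes tested. Their median log2 fold change was 0.12, against 0.02 for all genes. Arpc1b, a subunit of the Arp2/3 complex that nucleates branched actin, was at 222, 223 and 253 CPM with vehicle and at 518, 463 and 640 CPM with FGF18. Its log2 fold change was 1.21 (SE 0.14, FDR = 2.38e-07, edgeR). Fam101a, a filamin-binding refilin, fell by 0.88 on the log2 scale (SE 0.23, FDR = 0.00478, edgeR). The other genes that passed were Cyfip2, Lasp1 and Mical1 upward and Fam101b, Limk1 and Hip1r downward, each losing its call in at least 2 of the fits that left out 1 library. Regulators of actin filaments thus moved both ways in the cells in which Scin was higher.

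Of 7 FGF and ERK response genes tested, 2 rose and 0 fell in WT RCS (edgeR, 4 at an unadjusted p under 0.05, in either direction). Of all 7378 genes tested, 12.9% rose and 12.8% fell, with 1341 and 1327 at an unadjusted p under 0.05 (edgeR). Phlda1, a growth factor response gene, rose by 3.18 (SE 0.15, FDR = 4.56e-15, edgeR). Etv5, an ETS transcription factor known as a target of FGF signaling, was at 11.6, 8.16 and 13 CPM with vehicle and at 59, 68.9 and 83.8 CPM with FGF18. Its log2 fold change was 2.64 (SE 0.29, FDR = 8.83e-08, edgeR). The other 5 genes did not pass, with fitted values above 0 for Dusp1, Ets2 and Spred1 and below 0 for Myc and Frs2.

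In the cartilage list, 1 of 8 tested genes rose and 2 fell in WT RCS given FGF18, while 12.9% of all genes tested rose and 12.8% fell. Mia rose by 0.37 (SE 0.11, FDR = 0.0158, edgeR), a call lost in 3 fits that left out a WT library. Prelp and Fmod, small leucine-rich proteoglycans of the matrix, fell by 0.68 (SE 0.11, FDR = 3.74e-05, edgeR) and by 0.57 (SE 0.13, FDR = 0.00206, edgeR). In the list for hypertrophy and mineralization, with 2 genes tested, Fam20c, a secretory pathway kinase, rose by 1.19 (SE 0.14, FDR = 2.59e-07, edgeR). Smpd3, a sphingomyelinase of mineralizing cartilage, fell by 0.43 (SE 0.14, FDR = 0.0193, edgeR), a call lost in 5 fits that left out a WT library (FDR up to 0.0656). Of 3 fibroblast markers tested beside these lists, Col6a2 and Col5a2 rose in WT RCS, by 1.88 (SE 0.16, FDR = 6.71e-10, edgeR) and 2.55 (SE 0.47, FDR = 0.000177, edgeR), and Thy1 did not pass. The summed level of the 6 fibroblast markers of 11 that could be named was 188 to 238 CPM in WT vehicle, 704 to 962 CPM in WT FGF18, 452 to 493 CPM in FGFR3/4KO vehicle and 453 to 570 CPM in FGFR3/4KO FGF18 libraries, so that it was lowest in WT vehicle, as Scin was, but not lower with FGF18 in FGFR3/4KO RCS. Without Col6a2 the sum was 27 to 29, 71.5 to 109, 28.3 to 32.2 and 23 to 29 CPM in the same order, and 1 marker, Col6a1, was at 0 in all 3 FGFR3/4KO vehicle libraries. The part of other cell types in the level of Scin was not tested, and none of the 16 osteoclast and macrophage markers could be named.

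**Figure D3:**
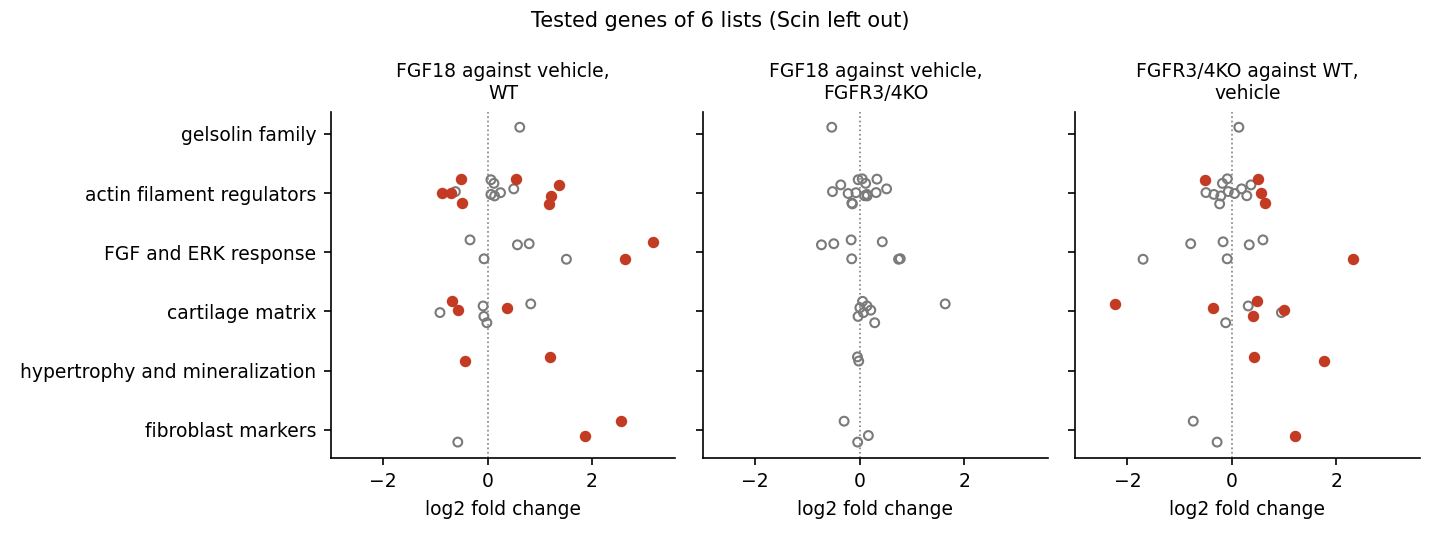
Log2 fold change (horizontal axis) of tested genes of 6 lists (vertical axis) in 3 comparisons, Scin left out. Each point is a gene, filled red where FDR was under 0.05 by edgeR and open where it was not, and vertical scatter within a list only separates the points. Called genes lie on both sides of 0 in WT RCS given FGF18, and none is called in FGFR3/4KO RCS.

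Vehicle-treated FGFR3/4KO RCS, in which Scin was present, also differed from vehicle-treated WT RCS in 13 of the 53 listed genes (edgeR). Of these, 9 were higher, against 8% of all genes tested, and 4 were lower, against 6.07%, a split that became 5 and 4 with library totals in place of TMM and 6 and 4 with upper-quartile normalization. With library totals, the split over all genes moved from 590 higher and 448 lower to 434 higher and 701 lower, while the median of all genes moved by -0.11 on the log2 scale. Of the 13 calls, 6 held in all 12 fits that left out 1 library. The number was 7 without WT vehicle replicate 1, 7 without FGFR3/4KO vehicle replicate 1 and 8 without FGFR3/4KO vehicle replicate 3.

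Etv5 was higher in vehicle-treated FGFR3/4KO than in WT RCS, by 2.33 on the log2 scale (SE 0.31, FDR = 6.8e-06, edgeR), at 59.8, 53.8 and 54.8 CPM. Its interaction was -1.86 (SE 0.38, FDR = 0.00126, edgeR). Etv5 thus had the same order as Scin in 3 of the groups, low in WT RCS with vehicle and higher both in WT RCS with FGF18 and in FGFR3/4KO RCS with vehicle. It differed from Scin in FGFR3/4KO RCS with FGF18, where it was at 104, 68.2 and 119 CPM, above all 3 of its vehicle libraries there (log2 fold change 0.78, FDR = 0.622, edgeR). Phlda1, set beside them after its values were seen, had a mean of 116 ± 9.55 CPM in vehicle-treated FGFR3/4KO RCS against 132 ± 11.7 CPM in the WT (SD, n = 3 each).

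Of the other genes called between the vehicle groups, Smpd3 was higher in FGFR3/4KO RCS by 1.77 (SE 0.13, FDR = 3.68e-10, edgeR), Fmod by 1.01 (SE 0.13, FDR = 5.6e-06, edgeR) and Prelp by 0.49 (SE 0.11, FDR = 0.00305, edgeR) on the log2 scale. In the cartilage list, 3 of 8 tested genes were higher and 2 lower, against 8% and 6.07% of all genes tested. The lower genes were Chad (log2 fold change -2.23, SE 0.68, FDR = 0.0251, edgeR) and Mia (-0.35, SE 0.11, FDR = 0.038, edgeR). Their calls were lost in 3 and 7 of the 12 fits that left out 1 library. Hip1r, which links clathrin coats to actin, was higher by 0.63 (SE 0.15, FDR = 0.00561, edgeR). Myh10, the heavy chain of nonmuscle myosin IIB, was lower, with a log2 fold change of -1.51 (SE 0.29, FDR = 0.000656, edgeR). Col6a2, outside the 53, was higher by 1.21 (SE 0.16, FDR = 5.63e-06, edgeR). The calls of Smpd3, Fmod, Prelp, Hip1r and Myh10 held in the 12 fits that left out 1 library.

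With FGF18 in both, FGFR3/4KO against WT RCS called 11 of the 53 listed genes higher and 13 lower, against 16.9% and 17% of all genes. Of the 24 calls, 17 held in each of the 12 fits that left out 1 library. In the actin list, 3 of 15 tested genes were higher in FGFR3/4KO RCS and 4 were lower. Hip1r was higher by 0.96 (SE 0.15, FDR = 1.42e-05, edgeR) and Arpc1b was lower (log2 fold change -0.83, SE 0.14, FDR = 2.76e-05, edgeR). Smpd3 was higher by 2.19 (SE 0.13, FDR = 9.07e-13, edgeR) and Fmod by 1.79 (SE 0.13, FDR = 7.01e-11, edgeR). In the cartilage list, 5 of 8 tested genes were higher and 2, Mia and Chad, were lower. The call of Chad was lost without FGFR3/4KO FGF18 replicate 2 (FDR = 0.0828, edgeR) and with DESeq2 (FDR = 0.0843). Mia had a log2 fold change of -0.72 (SE 0.11, FDR = 1.61e-05, edgeR). Of 7 FGF and ERK response genes tested, 0 were higher and 4 were lower. Phlda1 was among the lower genes, with a log2 fold change of -2.91 (SE 0.15, FDR = 1.83e-14, edgeR). Scin itself was on the lower side in this comparison and on the higher side in the comparison with vehicle.

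The genes whose profile over the 12 libraries was most like that of Scin were sought among 1394 named genes by the Pearson correlation of log2 CPM. Libraries of a group share genotype and treatment, and no p is given. Of the 5 most like it, 4 are reported here, which were Lamp2, a protein of the lysosomal membrane (r = 0.918), Galnt10, a glycosyltransferase that starts mucin-type O-glycans (r = 0.877), C1qtnf1, a secreted protein of the C1q and TNF-related family (r = 0.847), and Lztr1, an adaptor of a ubiquitin ligase for Ras proteins (r = 0.826). The least like Scin were Them6 (r = -0.887), Get4, which acts in the insertion of tail-anchored proteins (r = -0.874), and Ran, the GTPase of nuclear transport (r = -0.861). Over all 7377 other genes tested, 64 had an r above 0.8 and the median r was -0.02. Among all of these, with or without a name, Lamp2, Galnt10, C1qtnf1 and Lztr1 ranked 1, 11, 27 and 39 by r. Without WT FGF18 replicate 3, in which Scin was low, only 1 of the 5 most similar genes stayed among the 5, and 2 stayed without WT vehicle replicate 1, the library with no Scin read.

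Lamp2 was at 8.7, 24.5 and 25 CPM in WT RCS with vehicle and at 51.6, 51.7 and 38.2 CPM with FGF18. In FGFR3/4KO RCS it was at 41.4, 45.3 and 39.5 CPM with vehicle and at 39.6, 31.9 and 41.5 CPM with FGF18. As with Scin, the WT vehicle libraries were the lowest 3 of the 12, which goes with the choice of Lamp2 by its likeness to Scin in these libraries. C1qtnf1 had 2 reads in each WT vehicle library and 17, 26 and 13 with FGF18, and FGFR3/4KO RCS had a mean of 13.5 ± 2.02 CPM of it without and 12.5 ± 4.78 CPM after FGF18 (SD, n = 3 each).

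Among the listed genes, the profile nearest to that of Scin by Pearson correlation was that of Rnd3, a small GTPase (r = 0.822), followed outside the 53 by Col6a2 (r = 0.801) and then by Etv5 (r = 0.742). Rnd3 was at 20.3, 31.3 and 28 CPM in WT RCS with vehicle, below its values in all other libraries, which began at 33 CPM. Arhgap31 and Limk1, the kinase that inactivates cofilin, had the lowest r of these genes (-0.594 for both). The order depended on the measure, since by Spearman correlation Pxn and Arpc1b came nearest (0.797 for both), Rnd3 had a value of 0.706 and Etv5 of 0.413, and Cit was lowest (-0.678).

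**Figure D4:**
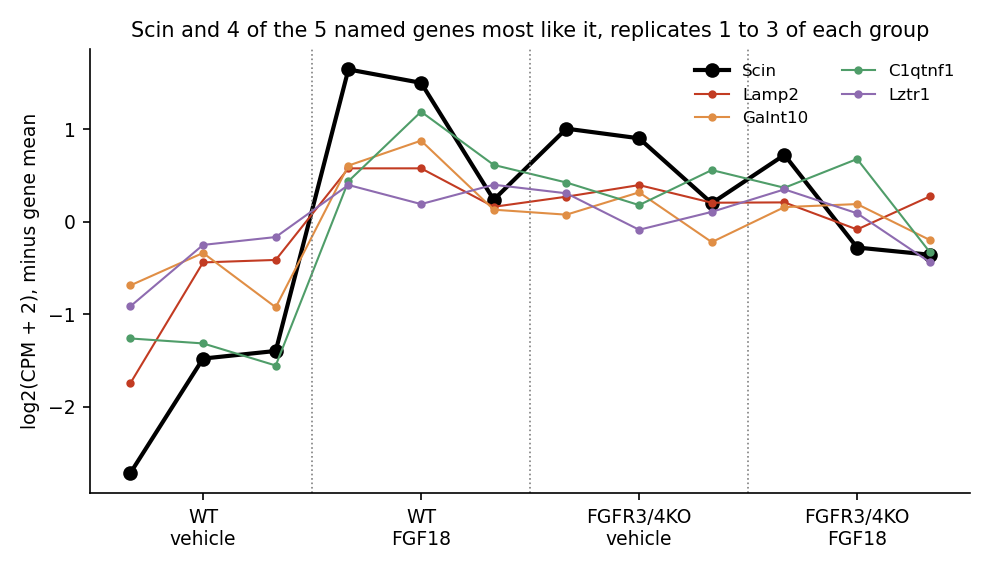
Log2(CPM + 2) minus each gene's mean over the 12 libraries (vertical axis) for Scin (black) and 4 of the 5 named genes most like it (colours), by library within the 4 groups (horizontal axis). The 4 were chosen by their likeness to Scin over these libraries (r between 0.826 and 0.918). On average they are, like Scin, lowest in WT RCS with vehicle.

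Arl4a, which encodes a small GTPase of the ARF family, was the only one of the 5 nearest protein-coding genes on each side of Scin that could be named, going by the gene order of GRCr8. It had 2 to 14 reads per library and did not pass the filter. Its mean in WT RCS was 7.23 ± 1.78 CPM without and 10.7 ± 5.71 CPM after FGF18, and the FGFR3/4KO means were 9.54 ± 2.59 and 4.49 ± 1.61 CPM (SD, n = 3 each). The WT ranges of Arl4a overlapped, unlike those of Scin. RefSeq also places 1 predicted gene, LOC120093247, so that it overlaps the span of Scin in GRCr8. By start position it comes before Arl4a, so that its span reaches over at least part of Arl4a too. Neither the strand setting used in counting nor the presence of this gene in the gene model used is known here. Whether reads from it entered the counts of Scin is therefore not known.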

How the data were processed

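Total RNA of 12 RCS cultures was made into QuantSeq 3′ libraries. Trimming (Trim Galore), alignment to rn6 (STAR) and counting per gene (htseq-count) were done by the authors, who deposited raw counts. Versions are not given in the sources used here. Symbols were taken from 1998 identifier and symbol pairs of the study's gene table, so 1418 of the tested genes have a name.

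Genes were kept by filterByExpr of edgeR 4.0.16 (R 4.3.3; minimum count 10, minimum total 15), leaving 7378 of 32754. Libraries were normalized by TMM. One quasi-likelihood model with a mean per group held all 12 libraries, and p-values were adjusted over all tested genes by Benjamini-Hochberg (FDR, threshold 0.05). The SE was taken as the log2 value over the root of its F statistic. Intervals of counts are exact Poisson 95% intervals. Likeness used log2 CPM with a prior count of 2. Scripts were tested on simulated data. Alternatives used DESeq2 1.42.0.

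Scin and the lists were chosen with earlier results of these data known. Named genes are Scin, at most 4 genes per list and comparison with the lowest FDR (the largest change where none passed), the 5 most and 3 least like Scin, and its neighbours. One gene and 1 list that the rule covers are not reported here by name.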

Additional observations from a re-analysis of the deposited data

Results flagged for a closer look

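The interaction test itself (quasi-likelihood test of edgeR, adjusted after Benjamini-Hochberg) was read for the 53 listed genes and 3 fibroblast markers tested. For 11 of these genes the effect of FGF18 differed between FGFR3/4KO and WT RCS. Of all 7378 genes tested, 5.91% passed with a positive and 4.96% with a negative interaction. The log2 interaction was negative, with a lower value of the FGF18 effect in FGFR3/4KO RCS, for Phlda1 (-2.74, FDR = 1.8e-09), Etv5 (-1.86, FDR = 0.00126), Col6a2 (-1.71, FDR = 4.25e-06), Ets2 (-1.30, FDR = 0.0139), Fam20c (-1.23, FDR = 9.51e-05), Arpc1b (-1.12, FDR = 4e-04) and Arhgef25 (-0.54, FDR = 0.0365). It was positive for Arhgap31 (2.33, FDR = 0.0406), Limk1 (1.01, FDR = 0.041), Fmod (0.79, FDR = 0.00505) and Prelp (0.74, FDR = 0.00205). The calls of Arhgap31, Limk1 and Arhgef25 were lost in 10, 9 and 9 of the 12 fits that each left out 1 library, with an FDR of up to 0.131, 0.136 and 0.175. That of Ets2 was lost without WT vehicle replicate 3 (FDR = 0.0513).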

How the results depend on the processing

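The sign of Scin's 5 fitted differences was the same under every alternative run. A prior count of 2 moved the log2 values by more than the replicate SD, to 2.91 for FGF18 in the WT, -3.53 for the interaction and 2.31 between the genotypes with vehicle. Leaving out each library in turn gave 3.33 to 4.30 in WT RCS, -1.13 to -0.47 in FGFR3/4KO RCS, -5.00 to -4.04 for the interaction, and 2.68 to 3.64 and -1.77 to -1.10 for the genotypes with vehicle and with FGF18. Scin missed the filter in a fit of only the vehicle groups, so that fit gave no value.

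The number of listed genes called ranged without 1 library from 15 to 23 in WT RCS, from 6 to 10 for the interaction (6 without WT vehicle replicate 3), from 7 to 14 between vehicle-treated and from 22 to 26 between FGF18-treated genotypes, and was 0 for FGF18 in FGFR3/4KO RCS. Over all genes, the FGF18 calls in FGFR3/4KO RCS, 0 by edgeR as reported, became 9 higher and 11 lower with no filter on low counts, 0 and 2 in a fit of those groups only, and 0 and 1 with at least 1 CPM in 3 libraries or without WT FGF18 replicate 3. Between genotypes with vehicle, the 590 higher and 448 lower genes became 488 and 289 with DESeq2, 434 and 701 with library totals, 780 and 685 in a fit of those groups only, and 421 to 681 and 258 to 530 without 1 library. Of the 5 genes most like Scin, 2 stayed with the Spearman correlation, and 1 to 5 without 1 library (1 without WT FGF18 replicate 3, 2 without WT vehicle replicate 1, 3 without WT FGF18 replicate 2, 3 without FGFR3/4KO vehicle replicate 1). The cause of these changes was not tested.

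The groups share replicate numbers, but deviations from group means correlated no more between libraries of the same number (mean r -0.03, 18 pairs) than of different numbers (0.015, 36 pairs). These values show no sign of pairing by number. With 3 libraries per group they cannot settle it, and whether cultures of the same number were handled together is not known. With a replicate block Scin was at 3.66 in WT RCS, -0.74 in FGFR3/4KO RCS, -4.40 for the interaction, and 3.12 and -1.28 between genotypes, and 23, 0, 7, 9 and 23 listed genes were called in the same order. Depth sets the floor for Scin, 3 reads being 2.46 to 8.5 CPM over the 12 libraries.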
